A study of Mus musculus with 15 samples.

Results

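Lungs of mice given dimethyl sulfoxide (DMSO) were set against lungs of mice given saline, gene by gene. The libraries were chosen by label, with DMSO 1, DMSO 4 and DMSO 6 on the tested side and control 1, control 2, control 4 and control 7 on the other, which makes 7 of the 15 libraries of the series. DMSO 7 also carries the DMSO label and was left out because its Rag1 level, 3876 CPM (counts scaled to the library total), lay above the limit of 1000 CPM. Rag1 encodes part of the enzyme that recombines antigen receptor genes in immature lymphocytes, and its highest level in the 7 libraries used was 0.108 CPM. That value chose the libraries and is not a result.

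The DMSO group received DMSO solution and the control group physiological saline, both in C57BL/J mice whose lungs were taken at day 30. The labels give no dose, route, age or sex for these groups, and they do not say if the libraries come from separate animals, and p-values measure only the spread between these libraries. The other groups of the series received silica, alone or followed by DMSO, and are not compared here. DMSO is a small polar solvent used to dissolve drugs and to protect frozen cells. In the airways of the lung, club and goblet cells secrete protective proteins and mucins, and ciliated cells move that mucus out. Gas passes between alveolar type 1 cells and capillary endothelium, while neutrophils and macrophages clear particles and microbes. In bulk RNA, fewer cells of a type and less RNA per cell cannot be told apart.

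Estimated counts summed to between 18468834 and 19570692 in the 7 libraries, and 16417 of the 57010 genes in the table passed a filter on low counts. Lung genes were present throughout, with Scgb1a1, the main secreted protein of club cells, the most abundant transcript in each of the 7 libraries. It took 8.83%, 12.6% and 5.19% of the counts in DMSO 1, 4 and 6, against 12.5%, 4.23%, 3.34% and 5.1% in control 1, 2, 4 and 7. The extraction notes name retinas, while the tissue field says lung. Below, levels are CPM scaled by edgeR's TMM factors, always in the order DMSO 1, 4, 6 and then control 1, 2, 4, 7.

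No gene passed edgeR's quasi-likelihood test between DMSO and control at a Benjamini-Hochberg adjusted p under 0.05, so 0% of the 16417 genes were called in each direction. The smallest adjusted p was 0.409. At an unadjusted p under 0.05 there were 1949 genes, of which 1416 were higher and 533 lower in DMSO. On the deposited TPM, as log2(TPM + 1) in limma-trend, the split was 115 higher and 1405 lower, and the median of all genes moved to −0.49 on the log2 scale, against −0.03 in the edgeR fit. DESeq2's Wald test called 85 genes, and limma-voom with quality weights called 8276. With 3 libraries against 4, an exact permutation test of a single value cannot go below 0.0571.

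The DMSO libraries did not sit together. DMSO 6 correlated with control 2, 4 and 7 at r = 0.985, 0.981 and 0.991 across genes on the log2 scale, but with DMSO 1 at 0.948 and with DMSO 4 at 0.812. DMSO 4 correlated best with DMSO 1, at 0.929. DMSO 1 in turn correlated more closely with control 7, at 0.952, and with control 2, at 0.940, than with DMSO 4. Genes share each library's depth and composition and are not independent replicates, so these correlations are a description.

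Which differences held in all 3 DMSO libraries was therefore counted directly. DMSO 1 and DMSO 4 lay above every control in 3407 genes (20.8% of those tested) and below every control in 3493 (21.3%). DMSO 6 lay beyond the controls on the same side in 599 of the higher genes (3.65% of those tested) and in 668 of the lower ones (4.07%). These are 17.6% of the higher and 19.1% of the lower genes of DMSO 1 and 4. By itself DMSO 6 was above every control in 7.85% of all genes tested and below every control in 8.86%. On the deposited TPM the balance of direction was different, with 719 genes above and 6493 below every control in DMSO 1 and 4, of which 165 and 807 held in DMSO 6. The 1267 genes that held became 3308, 2007, 1570 and 2548 when control 1, 2, 4 or 7 was left out, since fewer controls are easier to exceed.

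Where DMSO 6 held, its distance was short. Its median gap to the nearest control was 0.079 on the log2 scale in the 599 higher genes, against 0.397 for the nearer of DMSO 1 and 4. In the 668 lower genes these gaps were 0.094 and 0.427. DMSO 6 was the DMSO library nearest to the controls in 512 of the higher and 543 of the lower genes. With a gap of at least 0.5 in every DMSO library, 17 higher and 8 lower genes were left, and with a gap of at least 1 only Clca1 was left.

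**Figure D1:**
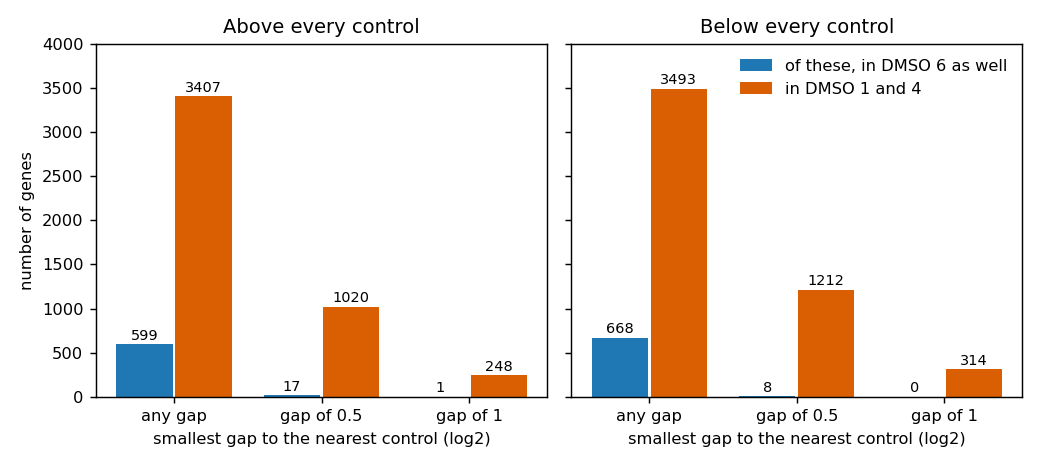
Number of genes (vertical axis) beyond every control, above on the left and below on the right, by the smallest gap to the nearest control on the log2 scale (horizontal axis). Blue bars count genes beyond the controls in DMSO 6 as well, and orange bars count genes beyond them in DMSO 1 and 4, with 599 of 3407 and 668 of 3493 at any gap and 1 of 248 and 0 of 314 at a gap of 1.

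Gene length moved with the libraries. Genes longer than 3000 bases took 23.7%, 12.4% and 35.8% of the counts in DMSO 1, 4 and 6, against 24.2%, 39.3%, 44.9% and 35.5% in the controls. DMSO 1, DMSO 4 and control 1 were low, and DMSO 6 lay among the other controls. The means were 24% ± 11.7 in DMSO (SD, n = 3) and 36% ± 8.75 in control (SD, n = 4), with p = 0.171 by an exact two-sided permutation test.

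In genes of up to 500 bases the median level was 0.97, 2.25 and −0.16 above the control mean on the log2 scale in DMSO 1, 4 and 6. In genes over 6000 bases it was −0.50, −1.39 and −0.06. The genes above every control in all 3 DMSO libraries had a median length of 2046 bases, those below every control 3880.5 bases, and all tested genes 2713 bases. With a smooth trend in length removed from each library, 598 genes lay above and 727 below every control in all 3 DMSO libraries, of which 301 and 386 were the same genes. A second correction put a term for the length class of the library (DMSO 1, DMSO 4 and control 1 against the rest) into the edgeR fit. Median fold changes from both corrections are given for some of the groups below. For the others only the genes that held with the length offset are counted or named.

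**Figure D2:**
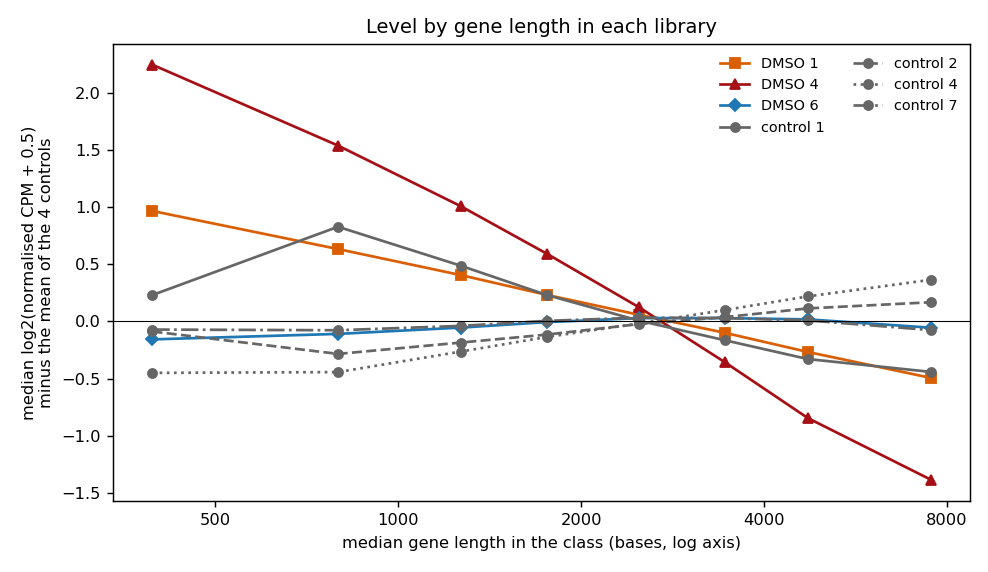
Median log2(normalised CPM + 0.5) minus the mean of the 4 controls (vertical axis) in 8 classes of gene length, plotted at the median length of the class in bases (horizontal log axis), 1 line per library. DMSO 4 runs between 2.25 in the shortest class and −1.39 in the longest, DMSO 1 and control 1 slope the same way in most classes, and DMSO 6 stays between −0.16 and 0.03.

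Goblet cell and mucus genes were among the groups in which DMSO 6 stood with DMSO 1 and 4 most often. Of 12 genes tested, 5 lay above every control in all 3 DMSO libraries, 5 in DMSO 1 and 4 only, and none passed the adjusted test. The shares were 41.7% and 41.7%, against 3.65% and 17.1% of all genes tested. The median over the 12 genes was 1.69, 3.48 and 0.41 above the control mean on the log2 scale in DMSO 1, 4 and 6, against 0.02, −0.03 and −0.01 over all genes tested. The same 5 genes, Clca1, Agr2, Bpifb1, Muc5b and Muc5ac, also held with the length offset. The group's median log2 fold change was 2.70, against 3.14 with the offset and 1.72 with the length-class term.

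Clca1, a secreted protein of mucus-producing cells, stood at 29.2, 113 and 2.78 CPM in DMSO 1, 4 and 6, against 0.466, 0.834, 0.439 and 0.228 CPM in the controls. All 3 DMSO libraries were above every control, with DMSO 4 highest and DMSO 6 nearest to the controls. Its log2 fold change was 6.59 ± 1.13 (SE), with an adjusted p of 0.409 by edgeR's quasi-likelihood test.

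Agr2, an endoplasmic reticulum protein needed for mucin folding, stood at 20.6, 177 and 2.15 CPM in DMSO, against 1.63, 1.21, 0.878 and 0.592 CPM in control. Bpifb1, a secreted airway defence protein, stood at 132, 555 and 83.1 CPM in DMSO, against 68.6, 42.5, 31.8 and 16.2 CPM in control. Both genes kept the order of DMSO 4, DMSO 1 and DMSO 6 above the highest control, which was control 1.

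The gel-forming mucins were nearer to the controls. Muc5b stood at 46.2, 161 and 65.9 CPM in DMSO, against 38.7, 28.8, 44.8 and 21.6 CPM in control. Muc5ac stood at 4.98, 10.96 and 2.33 CPM in DMSO, against 1.57, 0.973, 2.15 and 1.27 CPM in control. For Muc5b the DMSO library nearest to the controls was DMSO 1, and for Muc5ac it was DMSO 6.

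Other genes of the group did not hold. Gp2, a membrane glycoprotein of secretory epithelium, stood at 129, 864 and 3.09 CPM in DMSO, against 4.26, 5.79, 0.834 and 0.956 CPM in control. Itln1, a lectin that binds microbial sugars, stood at 35.5, 194 and 0.0448 CPM in DMSO, against 0.874, 0.834, 0.0439 and 0 CPM in control. In both genes DMSO 6 lay within the range of the controls, while DMSO 1 and 4 lay far above it. Tff2, Spdef and Foxa3 also lay above every control in DMSO 1 and 4 only. Fcgbp overlapped between the groups, with a log2 fold change of 0.067. Slc26a4 lay just below every control in DMSO 6, at 1.66 CPM against 1.69 CPM in control 1.

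**Figure D3:**
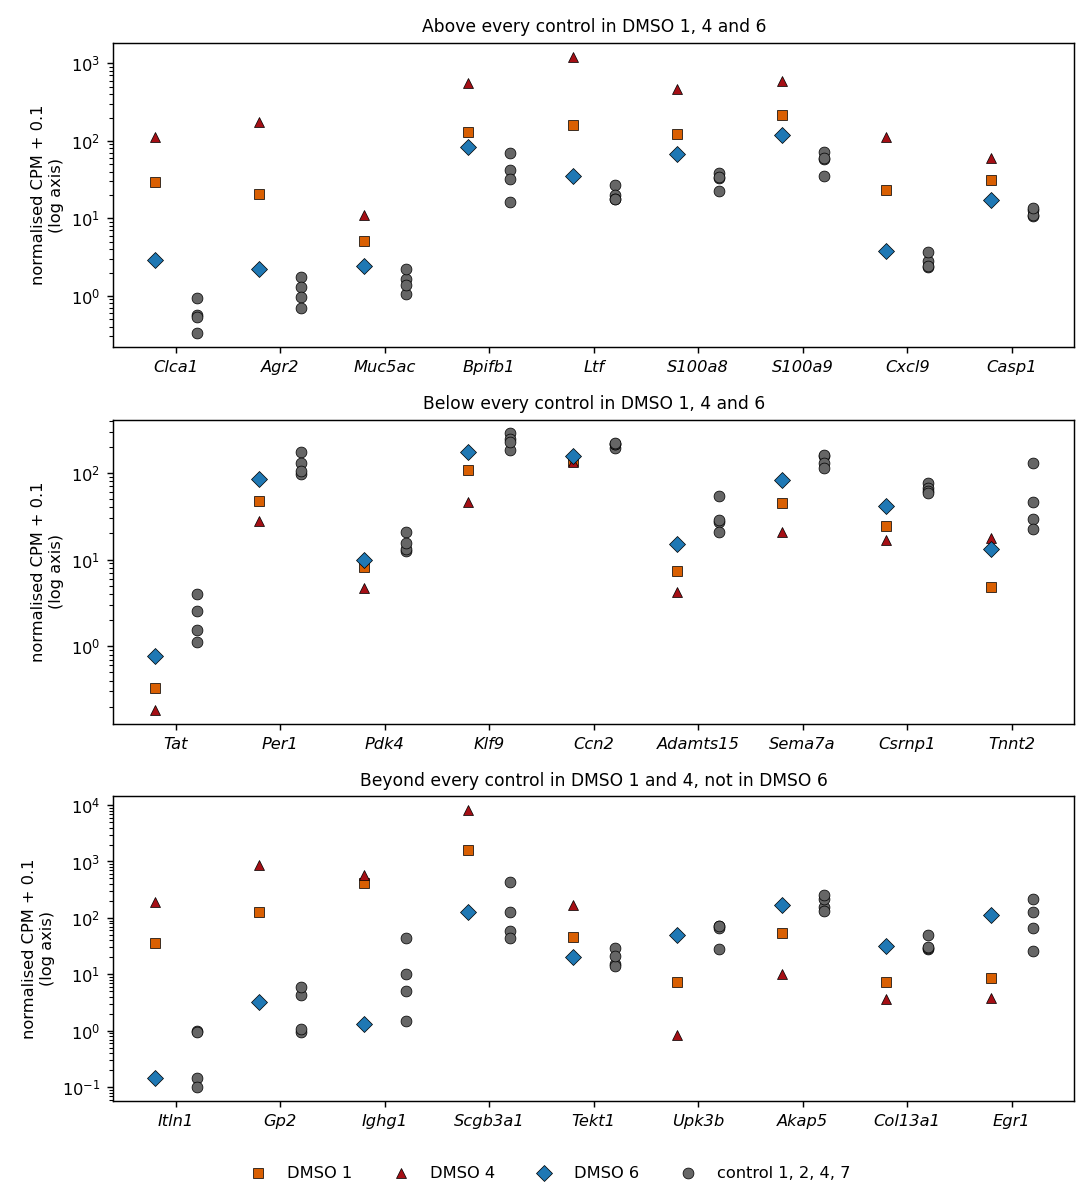
Level of single genes in each library as normalised CPM + 0.1 on a log axis, with DMSO 1, 4 and 6 left of the 4 controls of the same gene. In the upper panel all 3 DMSO libraries lie above the controls, as for Clca1 at 29.2, 113 and 2.78 CPM, in the middle panel all 3 lie below them, as for Per1, and in the lower panel DMSO 6 lies within the range of the controls or on their other side, as for Gp2 and Ighg1.

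Of 13 club cell genes, 4 lay above every control in all 3 DMSO libraries and 7 in DMSO 1 and 4 only. That is 30.8% and 53.8% of them, against 3.65% and 17.1% of all genes tested. The 4 were Cyp2f2, a cytochrome P450 of club cells, Por, the reductase that feeds electrons to P450 enzymes, Bpifa1, a secreted airway defence protein, and Muc5b. Por and Muc5b held with the length offset as well. Cyp2f2 stood at 3729, 4534 and 3269 CPM in DMSO, against 1371, 2797, 2381 and 3189 CPM in control. DMSO 6 exceeded control 7 only narrowly, and the log2 fold change of 0.66 turned to −0.07 on log2(TPM + 1). Scgb3a1, a secretoglobin of the upper airways, stood at 1581, 8084 and 129 CPM in DMSO, against 442, 127, 59.0 and 44.6 CPM in control, so that DMSO 6 lay among the controls.

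Neutrophil genes did not move as one. Of 13 genes tested, 7 lay above every control in all 3 DMSO libraries, namely S100a8, S100a9, Retnlg, Camp, Ltf, Il1r2 and Stfa2l1. That is 53.8%, against 3.65% of all genes tested. With the length offset 2 were left, S100a8 and Ltf. The group median was 1.03, 2.34 and 0.41 above the control mean in DMSO 1, 4 and 6. The median log2 fold change was 1.64, against 0.89 with the offset and 1.17 with the length-class term.

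S100a8 and S100a9 encode the subunits of calprotectin, a metal-binding antimicrobial protein of neutrophil cytoplasm. S100a9 stood at 213, 595 and 120 CPM in DMSO, against 57.8, 35.3, 71.4 and 59.5 CPM in control. S100a8 stood at 121, 470 and 67.7 CPM in DMSO, against 38.7, 22.7, 32.7 and 34.2 CPM in control. Both genes lay above every control in each DMSO library, again in the order DMSO 4, 1 and 6. The log2 fold changes of S100a9 and S100a8 were 2.47 ± 0.54 and 2.78 ± 0.62 (SE), each with an adjusted p of 0.409 by edgeR. Both genes are short, at 519 and 486 bases, and with the length offset the fold changes were 0.953 and 1.135.

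Ltf, the iron-binding lactoferrin of neutrophil granules and of airway glands, stood at 158, 1224 and 35.4 CPM in DMSO, against 27.2, 20.2, 17.6 and 17.6 CPM in control. Camp, the cathelicidin of the same granules, stood at 2.49, 4.39 and 6.18 CPM in DMSO, against 0.233, 0, 1.45 and 0.228 CPM in control. Camp was highest in DMSO 6, unlike most of the genes that held.

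Csf3r, Cxcr2, Mmp8 and Mmp9, also neutrophil genes, overlapped between the groups. Csf3r, the receptor for granulocyte colony-stimulating factor, stood at 16.1, 15.6 and 21.0 CPM in DMSO, against 12.5, 13.0, 39.2 and 16.5 CPM in control. Cxcr2, a chemokine receptor, stood at 6.16, 5.20 and 9.18 CPM in DMSO, against 2.97, 5.89, 16.4 and 8.37 CPM in control. Mmp8 and Mmp9 encode neutrophil proteases, and control 4 was highest for each of the 4 genes.

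The starts of S100a9 and Ltf are shown because both genes held in DMSO 6 and both carry a match to the letters TTGCNNAA, a core that C/EBP factors bind, S100a9 on the gene's own strand and Ltf on the other strand. The windows run 250 bases before to 50 bases after the gene start, from RefSeq on GRCm38.p6, with the match in capitals. S100a9 lies on the minus strand at chr3:90695672-90695971 and Ltf on the plus strand at chr9:111019042-111019341.
S100a9: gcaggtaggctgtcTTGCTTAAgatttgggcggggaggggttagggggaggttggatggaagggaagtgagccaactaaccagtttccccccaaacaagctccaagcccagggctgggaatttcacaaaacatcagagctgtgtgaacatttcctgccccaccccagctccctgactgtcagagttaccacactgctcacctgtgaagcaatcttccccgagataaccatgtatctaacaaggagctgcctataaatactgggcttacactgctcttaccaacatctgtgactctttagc
Ltf: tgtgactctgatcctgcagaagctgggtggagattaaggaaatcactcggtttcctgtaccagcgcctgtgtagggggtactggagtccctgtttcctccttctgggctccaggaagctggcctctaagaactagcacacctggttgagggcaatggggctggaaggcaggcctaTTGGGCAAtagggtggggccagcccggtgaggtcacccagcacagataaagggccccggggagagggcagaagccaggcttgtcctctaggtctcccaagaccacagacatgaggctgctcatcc
The match begins 236 bases before the start of S100a9 and 75 bases before that of Ltf. On either strand, 10.8% of the 32851 windows in the RefSeq table hold these letters, and 12.2% of all genes with a window have them in at least 1. Of the 13 neutrophil genes 12 had a window, and 6 of those held the match, including Mmp8, which overlapped between the groups. A match is a description of the letters only.

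Among 27 cytokines and chemokines, 3 held in DMSO 6 and 9 lay above every control in DMSO 1 and 4 only. The shares were 11.1% and 33.3%, against 3.65% and 17.1% of all genes tested. The group's median log2 fold change was 1.10, against 0.26 with the length offset and 0.97 with the length-class term. Cxcl9, a chemokine induced by interferon gamma that attracts T cells, stood at 23.0, 114 and 3.67 CPM in DMSO, against 2.68, 3.61, 2.28 and 2.32 CPM in control. DMSO 6 passed control 2 by a gap of 0.02 on the log2 scale, and the gene did not hold with the length offset. Il1b, the main secreted interleukin-1, stood at 27.9, 53.4 and 29.3 CPM in DMSO, against 8.92, 13.2, 26.1 and 15.5 CPM in control. The third gene was Cxcl3, a neutrophil attractant, and of the 3 it alone held with the length offset.

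Casp1, the protease that matures interleukin-1 beta, stood at 31.5, 60.0 and 17.1 CPM in DMSO, against 10.7, 12.7, 10.8 and 13.6 CPM in control. With Il1b and the decoy receptor Il1r2 it made 3 of 17 inflammasome and interleukin-1 genes above every control in all 3 DMSO libraries. That is 17.6%, against 3.65% of all genes tested. With the length offset Casp1 was left.

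Cell cycle genes held in 5 of 22 cases (22.7%, against 3.65% of all genes tested), all of them higher. They were Rrm2, a subunit of ribonucleotide reductase, Ccnb2, a mitotic cyclin, Aurka and Bub1, both mitotic kinases, and Kif11, a spindle motor. Rrm2 stood at 9.89, 15.2 and 8.60 CPM in DMSO, against 6.41, 6.49, 7.95 and 6.42 CPM in control, but its log2 fold change of 0.72 turned to −0.12 on log2(TPM + 1). Rrm2, Aurka, Bub1 and Kif11 held with the length offset. Mki67, the usual proliferation marker, stood at 9.67, 7.72 and 9.68 CPM in DMSO, against 12.2, 15.01, 15.2 and 9.19 CPM in control, so that the groups overlapped and DMSO lay mostly lower.

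Glucocorticoid targets respond to the stress hormone receptor. Of 15 genes tested, 6 lay below every control in all 3 DMSO libraries, against 4.07% of all genes tested. DMSO 6 was below every control in 10 of the 15 (66.7%, against 8.86% of all genes tested). The median was −0.40, −0.78 and −0.53 against the control mean on the log2 scale in DMSO 1, 4 and 6. With the length offset 6 genes were again below every control, of which Per1, Klf9, Pdk4 and Tat were the same. None passed the adjusted test.

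Tat, an enzyme of tyrosine breakdown and a classical glucocorticoid target of liver, stood at 0.226, 0.0812 and 0.672 CPM in DMSO, against 3.85, 2.46, 1.45 and 1.00 CPM in control. It is a low gene, with all 3 DMSO libraries under every control. Pdk4, a kinase that limits glucose oxidation, stood at 8.03, 4.63 and 9.81 CPM in DMSO, against 12.4, 20.6, 13.1 and 15.4 CPM in control. Klf9, a zinc finger repressor, stood at 108, 46.0 and 175 CPM in DMSO, against 184, 286, 243 and 228 CPM in control. For Pdk4 and Klf9, DMSO 6 was the DMSO library nearest to the controls.

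Fkbp5, a chaperone that restrains the glucocorticoid receptor, differed in order. It stood at 37.1, 33.6 and 21.8 CPM in DMSO, against 90.5, 70.4, 38.5 and 45.1 CPM in control, with DMSO 6 lowest of all. Errfi1, a feedback inhibitor of the EGF receptor, was the sixth gene. Not all targets followed, since Sgk1, an ion transport kinase, stood at 117, 105 and 93.2 CPM in DMSO, against 89.3, 129, 125 and 104 CPM in control. Tsc22d3, the leucine zipper protein GILZ, overlapped as well. The log2 fold change was positive for 5 of the 15 targets. Of the 15, 2 lay above every control in DMSO 1 and 4 only (13.3%, against 17.1% of all genes tested). Lcn2, which is also on the neutrophil list, was 1 of these. It stood at 366, 1822 and 128 CPM in DMSO, against 191, 115, 106 and 182 CPM in control.

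Clock genes held on both sides. In the circadian clock, Arntl (BMAL1) with Clock or Npas2 binds E-box letters and turns on Per, Cry and the output factor Tef, whose proteins include its repressors. Of 19 genes tested, Per1, Cry2 and Tef lay below every control in all 3 DMSO libraries, and Arntl and Npas2 above. These make 15.8% lower and 10.5% higher, against 4.07% and 3.65% of all genes tested. With the length offset Per1, Tef and Npas2 held. Another 9 genes (47.4%, against 17.2% of all genes tested) were lower in DMSO 1 and 4 only, among them Per2, Per3 and Hlf. The hour at which lungs were taken is not in the labels.

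Per1 stood at 46.8, 27.9 and 85.7 CPM in DMSO, against 175, 97.1, 130 and 106 CPM in control. Its log2 fold change was −1.25 ± 0.43 (SE), with an adjusted p of 0.409 by edgeR. Tef stood at 234, 140 and 306 CPM in DMSO, against 387, 332, 343 and 312 CPM in control. In both genes DMSO 6 was the DMSO library nearest to the controls, and for Tef it lay just under control 7.

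Arntl stood at 4.58, 5.52 and 3.54 CPM in DMSO, against 1.28, 3.38, 3.07 and 2.28 CPM in control. Cry2 stood at 47.0, 37.7 and 55.6 CPM in DMSO, against 112, 60.8, 63.3 and 61.8 CPM in control. The log2 fold change of Arntl was 0.85, and −0.005 on log2(TPM + 1). Control 1 was the lowest library for Arntl and the highest for Cry2. Dbp, another clock output factor, overlapped, at 99.6, 96.1 and 126 CPM in DMSO, against 202, 71.1, 163 and 113 CPM in control.

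The starts of Per1 and Tef are shown because both lay below every control in each DMSO library and hold the E-box letters CACGTG, in capitals. Per1 lies on the plus strand at chr11:69098699-69098998 and Tef on the plus strand at chr15:81802423-81802722, both from RefSeq on GRCm38.p6. Each of these genes has 2 windows in the table, of which the first along the chromosome that holds the letters is printed.
Per1: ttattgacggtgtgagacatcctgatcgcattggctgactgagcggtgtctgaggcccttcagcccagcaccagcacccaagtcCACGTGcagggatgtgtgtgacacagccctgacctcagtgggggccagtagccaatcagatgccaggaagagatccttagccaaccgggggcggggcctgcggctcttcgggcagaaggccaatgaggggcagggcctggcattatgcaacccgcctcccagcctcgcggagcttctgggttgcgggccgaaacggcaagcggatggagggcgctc
Tef: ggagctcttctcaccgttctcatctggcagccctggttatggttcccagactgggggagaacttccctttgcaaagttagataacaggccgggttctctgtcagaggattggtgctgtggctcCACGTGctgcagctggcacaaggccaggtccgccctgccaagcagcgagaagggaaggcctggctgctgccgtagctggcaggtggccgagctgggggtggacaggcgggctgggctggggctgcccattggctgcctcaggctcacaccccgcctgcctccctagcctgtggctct
The match begins 166 bases before the start of Per1 and 127 bases before that of Tef. These letters are in 7.15% of all windows, and 8.09% of all genes with a window have them in at least 1. Of the 19 clock genes 16 had a window, and 5 held the match, Per1, Tef, Cry1, Bhlhe41 and Ciart. Of these 5 genes Cry1, Bhlhe41 and Ciart lay below every control in DMSO 1 and 4 only.

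No TGF-beta response gene and no matrix gene passed the adjusted test. Of 17 TGF-beta response genes, 4 lay below every control in all 3 DMSO libraries, among them Ccn2, Ltbp2 and Itgb6. With the length offset 2 did, Ccn2 among them. The 4 are 23.5% of the group, against 4.07% of all genes tested. Ccn2, a matricellular growth factor, stood at 139, 134 and 156 CPM in DMSO, against 192, 216, 215 and 223 CPM in control. The DMSO libraries lay close together and below the lowest control, control 1. The log2 fold change of Ltbp2, a matrix protein that binds elastic fibres, was −0.64, and 0.04 with the length offset, so its direction was lost there.

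The genes of smallest p below every control included further matrix proteins. Adamts15, a protease that cuts proteoglycans, stood at 7.35, 4.06 and 15.2 CPM in DMSO, against 53.3, 27.1, 28.3 and 20.5 CPM in control. Adamtsl2, a matrix protein related to it, stood at 11.3, 9.75 and 15.6 CPM in DMSO, against 24.7, 18.6, 28.4 and 25.1 CPM in control. Both held with the length offset.

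Sema7a, a membrane-anchored semaphorin, stood at 44.4, 21.0 and 82.9 CPM in DMSO, against 157, 162, 130 and 114 CPM in control. Csrnp1, a nuclear protein induced early by growth signals, stood at 24.2, 16.7 and 41.0 CPM in DMSO, against 75.8, 66.4, 61.6 and 58.7 CPM in control. DMSO 6 was nearest to the controls in both, with gaps of 0.46 and 0.51 on the log2 scale. Of 29 collagen and matrix genes, Eln and Lox, elastin and the enzyme that crosslinks it, lay below every control in all 3 DMSO libraries. That share is near the 4.07% of all genes tested. In DMSO 1 and 4 only, 12 did (41.4%, against 17.2% of all genes tested). With the length offset 3 of the 29 lay below every control in all 3, Lox, Bgn and Col18a1.

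Before any length correction, heart muscle genes lay lower in DMSO 1 and DMSO 6 than in DMSO 4 by the group median. DMSO 6 was below every control in 9 of 13 genes, while Tnnt2 and Sln were below in all 3 libraries. The shares were 69.2% and 15.4%, against 8.86% and 4.07% of all genes tested. With the length offset 6 of the 13 were below every control in all 3, Tnnt2, Sln, Myl4, Myl7, Tnni3 and Csrp3. The group median was −2.26, −0.26 and −1.27 against the control mean in DMSO 1, 4 and 6. Tnnt2, cardiac troponin T, stood at 4.69, 17.5 and 13.0 CPM in DMSO, against 129, 29.4, 46.1 and 22.3 CPM in control. Myh6, a heart myosin heavy chain, stood at 0.509, 22.2 and 5.69 CPM in DMSO, against 107, 28.6, 160 and 12.6 CPM in control. The controls themselves spanned a wide range. Pln and Hspb7, both muscle genes, were among the lower genes of smallest p as well. Pln stood at 0.622, 2.03 and 3.72 CPM in DMSO, against 6.24, 8.71, 12.4 and 5.73 CPM in control. The share of heart muscle RNA in each sample was not measured apart from these genes.

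Several large groups stood beyond the controls in DMSO 1 and 4 without DMSO 6 on the same side. Genes that lay beyond every control in DMSO 1 and 4 only made up 17.1% of those tested on the higher side and 17.2% on the lower. Of 17 plasma cell and immunoglobulin constant genes, 14 lay above every control in DMSO 1 and 4 and none in DMSO 6. Prdm1 went the other way, at 6.73 and 4.39 CPM in DMSO 1 and 4, against at least 8.01 CPM in the controls. Irf4 and Iglc3 overlapped between the groups. DMSO 6 lay below every control in 6 of the 17, or 35.3%, against 8.86% of all genes tested. Their median was 1.80, 3.36 and −1.0 against the control mean in DMSO 1, 4 and 6.

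Ighg1, a heavy chain of IgG, stood at 411, 580 and 1.21 CPM in DMSO, against 44.4, 10.1, 4.96 and 1.41 CPM in control. Ighg2b, another IgG heavy chain, stood at 793, 2575 and 14.1 CPM in DMSO, against 134, 120, 26.4 and 222 CPM in control. In both genes DMSO 6 was the lowest of the 7 libraries while DMSO 1 and 4 were the highest. The group's median log2 fold change was 2.44, against 1.55 with the length offset and 0.70 with the length-class term. For Ighg2b it was 3.17, against 3.07 and 0.20. Counts of constant genes can be split between near-identical copies.

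Of 13 MHC class II presentation genes, 9 (69.2%, against 17.1% of all genes tested) lay above every control in DMSO 1 and 4 only. Ctss, the protease that trims the class II invariant chain, stood at 524, 610 and 205 CPM in DMSO, against 177, 258, 186 and 217 CPM in control. Ciliated cell genes did so in 8 of 13 cases, or 61.5%. Tekt1, a protein of ciliary microtubules, stood at 46.0, 169 and 20.1 CPM in DMSO, against 29.2, 15.2, 14.1 and 20.8 CPM in control. For Ctss and Tekt1, DMSO 6 lay within the controls' range. The median log2 fold change of the class II genes was 0.98, against 0.32 with the length offset and 0.64 with the length-class term. For Ctss it was 1.09, against 0.46 and 0.75. The ciliated genes had a median of 1.17, against 0.94 with the offset and 0.65 with the class term. The long ciliated genes Dnah5, Dnah9 and Hydin overlapped between the groups.

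Cytosolic ribosomal protein genes are short. Of 30 tested, 17 (56.7%, against 17.1% of all genes tested) lay above every control in DMSO 1 and 4 only. None lay above every control in all 3 DMSO libraries, but with the length offset 6 of the 30 did. Their median log2 fold change was 1.35, against 0.49 with the length offset and 0.53 with the length-class term. The 32 oxidative phosphorylation genes had a median of 0.92, against 0.08 with the offset and 0.30 with the class term. Over all genes tested the median was −0.03, −0.03 and 0.03 in these 3 fits.

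On the lower side, 10 of 14 alveolar type 1 genes lay below every control in DMSO 1 and 4 only. So did 10 of 18 endothelial, 10 of 15 fibroblast and 8 of 10 mesothelial genes. The shares were 71.4%, 55.6%, 66.7% and 80.0%, against 17.2% of all genes tested. Akap5, an anchoring protein for kinases, stood at 54.6, 10.1 and 173 CPM in DMSO, against 158, 215, 259 and 133 CPM in control. Vegfa, the endothelial growth factor, stood at 144, 38.4 and 392 CPM in DMSO, against 265, 378, 439 and 377 CPM in control. Upk3b, a mesothelial membrane protein, stood at 7.18, 0.731 and 50.4 CPM in DMSO, against 73.0, 28.5, 67.2 and 72.9 CPM in control. In each of the 3 genes DMSO 4 was lowest, and DMSO 6 lay among the controls. The log2 fold change was positive for 3 of the 15 fibroblast and 2 of the 10 mesothelial genes. It was negative for every alveolar type 1 and endothelial gene. Msln, a mesothelial gene, stood at 50.5, 184 and 41.0 CPM in DMSO, against 130.5, 36.05, 53.7 and 55.0 CPM in control. Lum, a fibroblast gene, stood at 16.4 and 32.2 CPM in DMSO 1 and 4, above the highest control at 12.8 CPM.

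The median log2 fold change with the length offset was −0.89 for alveolar type 1, −0.81 for endothelial, −0.80 for fibroblast and −1.14 for mesothelial genes, close to −0.90, −0.88, −0.83 and −1.27 without it. With the length-class term it was −0.69, −0.70, −0.64 and −1.25. Of the endothelial genes, Vwf, the clotting factor carrier, and Plvap, a diaphragm protein of capillaries, lay below every control in all 3 DMSO libraries, and with the length offset only Plvap did. With that offset 2 alveolar type 1, 2 fibroblast and 1 mesothelial gene lay below every control in all 3, against 1, 1 and 0 without it. Without the offset the shares were 11.1% of endothelial, 7.14% of alveolar type 1, 6.67% of fibroblast and 0% of mesothelial genes. Over all genes tested the share was 4.07%, or 668 of 16417, and with the offset 727 of 16417 genes did so. These groups rest on few genes and lie near that background. Vwf stood at 103, 65.8 and 215 CPM in DMSO, against 346, 250, 479 and 258 CPM in control.

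Immediate early genes respond to stimulation within minutes. Of 25 tested, 13 (52.0%, against 17.2% of all genes tested) lay below every control in DMSO 1 and 4 only. None held in DMSO 6, while Myc held with the length offset. The median log2 fold change was −0.65, against −0.61 with the length offset and −0.28 with the length-class term. Egr1, an early growth response factor, stood at 8.42, 3.74 and 114 CPM in DMSO, against 26.1, 65.5, 220 and 126 CPM in control. DMSO 6 lay within the controls and DMSO 1 and 4 below them all. The group median was −0.87, −1.53 and 0.33 against the control mean in DMSO 1, 4 and 6.

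**Figure D4:**
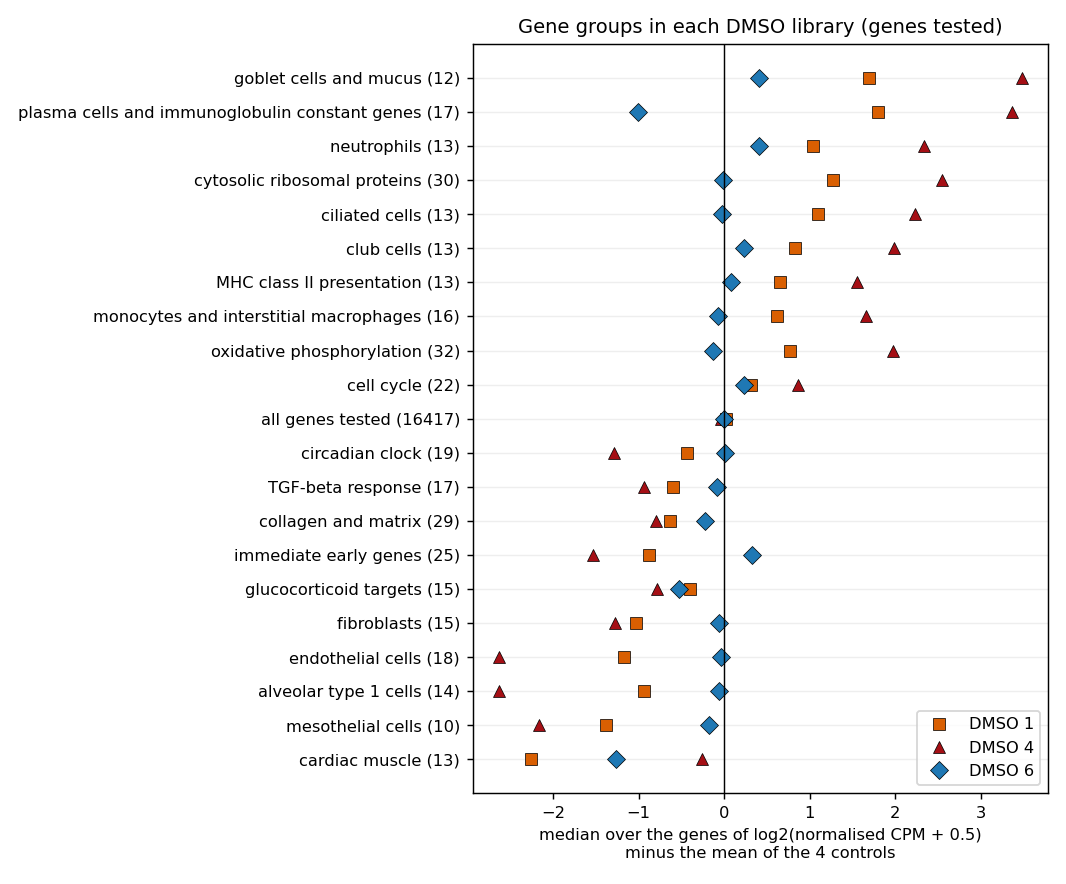
Median over the genes of each group (number tested in brackets) of log2(normalised CPM + 0.5) minus the mean of the 4 controls, with 1 marker each for DMSO 1, 4 and 6. DMSO 6 lies near 0 for most groups, at 0.41 for goblet and neutrophil genes, at −0.53 for glucocorticoid targets, at −1.27 for cardiac muscle and at −1.0 for plasma cell genes, where DMSO 1 and 4 are at 1.80 and 3.36.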

How the data were processed

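Lung RNA was compared between DMSO (n = 3) and control (n = 4) libraries, grouped by label. Expected counts per gene, made by the authors, were deposited in a first table, and a second deposited table holds TPM by the authors, with every library scaled to the same total and its depth lost. Gene length in bases is an other value deposited by the authors, and 8 columns of the authors' means were not used. Bowtie 0.12.2 and build mm8 are named in the submitters' processing notes. The quantification program is not given in the sources consulted.

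Expected counts were rounded, which changed the total of each of the 15 libraries by at most 53.9 counts. Genes were filtered with filterByExpr (smallest count 10, total 15), scaled by TMM and tested with edgeR 4.0.16 (quasi-likelihood, robust, Benjamini-Hochberg) in R 4.3.3. DESeq2 1.42.0 and limma 3.58.1 were alternatives, as were other scalings, filters, a replicate block, length corrections and leaving out each library. Fold changes are log2, and SE is the fold change over the root of F. Figures were drawn with matplotlib 3.10.9.

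The length offset is a lowess (span 0.3) of the log2 ratio on log2 length, fitted on genes of at least 10 CPM on average. A first form fitted on all genes left part of a length trend in simulated data and was replaced after results with it had been seen. It is kept as an alternative. In the 7 libraries the correlation of a gene's deviation with length ran between −0.614 and 0.523 before the offset, between −0.14 (control 2) and 0.088 after it, and between −0.073 and 0.057 after the first form, so the first form left the narrower range in the real libraries.

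The members, the 50 gene lists and the tests were chosen with earlier results of these data known. Genes named are the 8 of smallest p on each side among those of at least 5 CPM that held in all 3 DMSO libraries, and up to 3 per list that held or that lay beyond the controls in DMSO 1 and 4 only, taking the lists with the largest shares up to 20 genes each. Other genes were named after their values were seen. Some genes that this rule selects are left unreported.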

Additional observations from a re-analysis of the deposited data

Results flagged for a closer look

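For each named gene the 4 controls were searched for a library far from the others, by its gap to the nearest control over the range of the 4, against Dixon's critical value at the 95% level. Chance gives such a value in about 1 in 20 groups, and 6 of 48 named genes had one. The ratio was 0.951 for Rrm2, 0.952 for Cry2, 0.912 for H2-Oa, 0.84 for H2-DMb1, 0.921 for Col13a1 and 0.869 for Upk3b. For Cry2 the library apart was control 1, for Upk3b and H2-DMb1 control 2, and for Rrm2, H2-Oa and Col13a1 control 4.

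Rag1 stood at 3876 CPM in DMSO 7, which was left out for that value, against at most 0.108 CPM in the 7 libraries used.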

How the results depend on the processing

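The count of 0 called genes became 85 with DESeq2's Wald test and 8276 with limma-voom and quality weights, and ran between 0 and 2 when each library was left out, with 2 without DMSO 6. It was 0 under the other scalings, filters, length corrections and fits with more libraries, and in the main fit at an adjusted p under 0.1. Without DMSO 6, however, 3166 genes had an adjusted p under 0.1 by edgeR, against 0 in the main fit. In that fit 5356 genes had an unadjusted p under 0.05, against 1949 in the main fit. A replicate block on the library numbers gave 153 calls on 1 residual degree of freedom. The labels do not say that numbers pair libraries, only 1 and 4 are shared, and deviations of same-numbered libraries correlated at −0.181 and −0.545, so the block was not used. The 1267 genes that held in DMSO 6 ran between 1532 and 3308 with 1 library left out, and were 696 with DMSO 7 required as well, 25 at a gap of 0.5 and 1 at a gap of 1. The 5633 genes of DMSO 1 and 4 that did not hold were 2207 and 561 at these gaps. The share that held, 18.4%, was 1.12% and 0.178% at these gaps and ran between 21.7% and 34% with 1 control left out. The gap of 0.5, leaving out DMSO 1 or 4 for the count that held, and the length offset fitted on all genes were added after seeing the data. That last form gave 1317 genes that held, against 1325 with the form used, and 0 calls. Of 48 named genes, the log2 fold change changed sign for Rrm2 (−0.12 and −0.139), Cyp2f2 (−0.065 and −0.065) with TPM at pseudocounts of 1 and 0.1, for Arntl (−0.005) at 1, and for Ltbp2 (0.039) with the length offset, whose causes were not tested. Low genes such as Tat rest on few counts, which limits them.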
